A study of Mus musculus with 2 samples.

Results

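The PARP family was compared between Tc1 and Tc9 cells, with 1 array each, as 10 genes chosen by symbol: Parp1, Parp2, Parp3, Parp4, Parp8, Parp9, Parp10, Parp11, Parp12 and Parp14. Of these, 9 had a probe set among the 19505 measured genes, each gene with 1 probe set, and all 9 were detectable. Parp1 was not analysed here. Both cultures were mouse CD8 T cells from spleen and lymph node, stimulated through CD3 and CD28, polarized for 3 days and then rested for 2 days with IL-2 at 10 ng/mL, and total RNA was taken on day 5. The Tc9 polarizing medium held IL-4 at 10 ng/mL, TGF-β at 1 ng/mL and an antibody that blocks IFN-γ at 20 µg/mL, while the Tc1 polarizing medium held 10 ng/mL of IL-2. Tc1 cells are the IFN-γ-producing type of CD8 T cell and Tc9 cells the IL-9-producing type, and the series was made to find genes more highly expressed in Tc9 cells. Neither the strain and age of the mice nor how many were used is given in the sources used here.

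With 1 array per group no difference below has a replicate check, no p-value can be given, and every statement describes this pair of arrays. The source name of the second sample reads Tc1, against its title and description. It was used as Tc9, and its signals for the signature genes were on the Tc9 side, with Il9 at least 4.07-fold higher, Ifng 3.27-fold lower and Tbx21, the T-bet gene, 8.30-fold lower than on the first array. Detectable genes, 10147 in number, are those with a log2 signal of at least 6.43, the median of all gene values, on 1 or both arrays. A difference is the log2 signal of the Tc9 array minus that of the Tc1 array, so that a negative value is a lower signal in Tc9 cells. Where a signal was under the threshold, the fold was computed with the threshold in its place and written as "at least". In bulk RNA, fewer cells of a kind and less RNA per cell cannot be told apart.

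PARP proteins transfer ADP-ribose from NAD to proteins or nucleic acids. Parp1, Parp2 and Parp3 are switched on by broken DNA and recruit repair proteins to the break, and Parp1 and Parp2 build long ADP-ribose chains there. Most of the other members add single ADP-ribose units or have lost the activity, and Parp9, Parp10, Parp11, Parp12 and Parp14 are known as genes that interferons induce, several with antiviral roles. Interferons act on such genes through STAT and IRF factors that bind 2 kinds of promoter element, the interferon-stimulated response element (ISRE) and the gamma-activated site (GAS). The members were picked with their differences between these same arrays already known, so the contrast between repair and interferon-induced members is a description of how they were chosen and supports nothing by itself.

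The promoters of 5 members are shown because they include both measured repair members, an interferon-induced member whose Tc9 signal was below the threshold, and those with a match to an interferon element. Each is the stretch of 250 bases before an annotated RefSeq gene start in GRCm38.p6, written 5′ to 3′ on the strand of the gene, with matches to an ISRE core or a GAS in capitals.
Parp2, chr14:50807666-50807915, plus strand: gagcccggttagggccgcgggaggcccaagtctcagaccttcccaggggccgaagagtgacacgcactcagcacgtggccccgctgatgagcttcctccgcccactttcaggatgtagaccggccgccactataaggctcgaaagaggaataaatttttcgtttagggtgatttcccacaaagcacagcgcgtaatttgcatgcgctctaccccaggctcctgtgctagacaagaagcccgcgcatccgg
Parp3, chr9:106476950-106477199, minus strand: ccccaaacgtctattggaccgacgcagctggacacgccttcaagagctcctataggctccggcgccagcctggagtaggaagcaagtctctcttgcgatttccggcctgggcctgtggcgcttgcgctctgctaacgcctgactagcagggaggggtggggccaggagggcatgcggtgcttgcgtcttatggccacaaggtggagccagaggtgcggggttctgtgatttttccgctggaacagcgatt
Parp4, chr14:56575369-56575618, plus strand: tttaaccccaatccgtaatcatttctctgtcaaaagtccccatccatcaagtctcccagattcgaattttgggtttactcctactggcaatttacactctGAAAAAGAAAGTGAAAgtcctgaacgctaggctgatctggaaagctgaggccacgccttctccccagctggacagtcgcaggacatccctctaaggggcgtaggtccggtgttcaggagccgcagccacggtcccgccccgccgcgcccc
Parp11, chr6:127446590-127446839, plus strand: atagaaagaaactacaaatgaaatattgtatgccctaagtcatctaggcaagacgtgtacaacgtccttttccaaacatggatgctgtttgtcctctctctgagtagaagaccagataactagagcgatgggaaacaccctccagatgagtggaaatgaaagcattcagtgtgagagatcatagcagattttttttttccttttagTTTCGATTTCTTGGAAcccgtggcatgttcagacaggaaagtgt
Parp12, chr6:39118350-39118599, minus strand: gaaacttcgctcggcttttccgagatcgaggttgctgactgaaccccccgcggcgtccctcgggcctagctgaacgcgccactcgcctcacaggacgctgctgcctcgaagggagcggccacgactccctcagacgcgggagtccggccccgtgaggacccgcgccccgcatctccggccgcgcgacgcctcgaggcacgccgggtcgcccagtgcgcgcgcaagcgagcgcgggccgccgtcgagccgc

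RefSeq promoter sequences were matched for 7 of the 10 genes, namely Parp1, Parp2, Parp3, Parp4, Parp8, Parp11 and Parp12. On both strands, the ISRE core was searched as GAAA and GAAA with any 2 bases between them, the GAS as TTC and GAA with any 3 bases between them, a STAT6-type site as TTC and GAA with any 4 between them, and the GC box as GGGCGG. The Parp11 stretch, from the first of 2 annotated starts, held 1 ISRE core on the minus strand, 35 to 44 bases before the start, which overlapped 1 GAS at 29 to 37 bases. The second Parp11 start had neither. The Parp4 stretch held 2 overlapping ISRE core matches, together spanning 135 to 150 bases before the start. The stretches of Parp1, Parp2, Parp3, Parp8 and Parp12 had no match to the ISRE core or the GAS, and a STAT6-type match was seen at none of the 8 starts of the 7 genes. A GC box stood at starts of Parp1, Parp2, Parp4, Parp8 and Parp11.

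Of 32851 promoter stretches of this length, 2.98% held the ISRE core, 7.02% the GAS, 5.85% the STAT6-type site and 32.7% the GC box. Counted over all starts of a gene, the GC box was in 63.7% of 8311 detectable genes with a promoter. Among 216 genes with a promoter that were at least 2-fold lower on the Tc9 array, 46 (21.3%) had the ISRE core at 1 or more starts, against 272 of 8311 detectable genes (3.27%). On the same count, the shares were 11.6% against 7.29% for the GAS and 5.56% against 5.52% for the STAT6-type site. For the GC box they were 43.1% against 63.7%. The lower genes were called on these same 2 arrays, and a cause was not tested. Among the measured members with a promoter, Parp4, with 2 ISRE matches, had a difference of -0.26, and Parp11, with 1, had -0.97. Of those with none in this window, Parp2 had 0.11, Parp3 -0.25, Parp8 -0.45 and Parp12 at most -1.31. The promoters of Parp9, Parp10 and Parp14 were not used here, so the match and the difference cannot be compared over the interferon-induced members. A match of letters is not a bound site.

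All 5 interferon-induced members had lower signals in Tc9 cells, and of the 2 measured repair members 1 was slightly higher and 1 slightly lower. The median difference was -0.97 for the interferon-induced members, -0.07 for Parp2 and Parp3, and 0.05 over all detectable genes. The measured differences of the interferon-induced members ran from -1.84 to -0.62. With dim signals set at the threshold they ran from -1.36 to -0.62. At the 2-fold size, 2 of the 5 interferon-induced members were lower and no measured member was higher, where 2.79% of detectable genes were lower and 2.62% higher. At 1.5-fold, all 5 were lower, where 6.78% of detectable genes were, and neither Parp2 nor Parp3 passed. The number past 2-fold depended on scaling, being 4 of 5 after quantile normalization, because Parp9 and Parp11 lay just inside 2-fold.

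**Figure D1:**
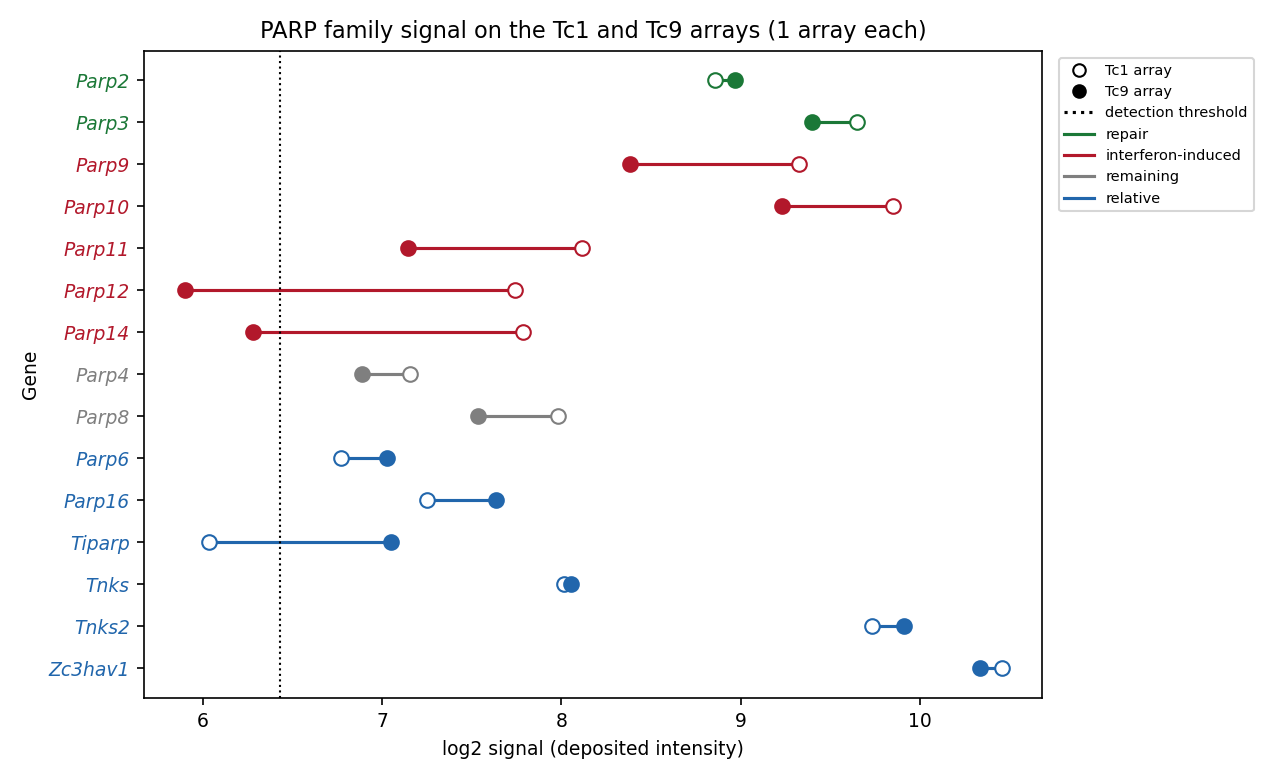
Log2 signal of each PARP gene on the Tc1 array (open circles) and the Tc9 array (filled circles), with 1 array per group and no error bars. The 5 interferon-induced members all lie lower on the Tc9 array, and Parp12 and Parp14 fall below the detection threshold of 6.43 (dotted line), while Parp2 and Parp3 hardly separate.

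Among the repair members, Parp2, which acts with Parp1 in single-strand break repair, had intensities of 463 and 501 in Tc1 and Tc9 cells. Its log2 signals were 8.86 and 8.97, a 1.08-fold higher signal in Tc9 cells. Parp3, which takes part in the joining of double-strand breaks, had intensities of 802 and 675, or 9.65 and 9.40 on the log2 scale. It was 1.19-fold lower in Tc9 cells. Both genes cleared the threshold in both cultures, and their differences had opposite signs. A difference as low as that of Parp3 or lower was seen in 20.2% of detectable genes.

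Parp12, a zinc finger member of the antiviral branch, was 1 of the 2 members past 2-fold. Its intensity was 214 in Tc1 cells and 59.8 in Tc9 cells, and its log2 signals were 7.74 and 5.90. The Tc9 signal was below the detection threshold, so the gene was at least 2.48-fold lower. Parp14, a large protein with macrodomains, which bind ADP-ribose, is known as a cofactor of STAT6, the factor that IL-4 activates. Its intensity was 221 in Tc1 cells and 77.8 in Tc9 cells, with log2 signals of 7.79 and 6.28, and it was at least 2.56-fold lower. As the Tc9 signals of both genes were under the threshold, their differences have no order. The IL-4 receptor chain gene Il4ra and Stat6 itself, by contrast, were near even, with log2 differences of 0.24 and 0.15.

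Parp9, another macrodomain protein, works as a pair with the ubiquitin ligase Dtx3l. It had intensities of 643 and 334 on the Tc1 and Tc9 arrays, log2 signals of 9.33 and 8.38, and a signal 1.93-fold lower in Tc9 cells. Dtx3l, which was singled out after its value was seen, had log2 signals of 10.18 and 9.26 and was 1.89-fold lower. The 2 partners thus differed by almost the same amount, -0.95 and -0.92. Parp11, a transferase of single ADP-ribose units, had intensities of 277 and 141 and log2 signals of 8.11 and 7.14, and was 1.96-fold lower. Parp10, a transferase of the same kind, had intensities of 921 and 601 and log2 signals of 9.85 and 9.23, and was 1.53-fold lower, the smallest difference of the 5.

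The 2 members outside both classes were also lower in Tc9 cells, by less than any interferon-induced member. Parp8, a little-studied member, had intensities of 253 and 185, log2 signals of 7.98 and 7.53 and a difference of -0.45. Parp4, which is part of the vault particle, had intensities of 142 and 119, log2 signals of 7.15 and 6.89 and a difference of -0.26, close to the -0.25 of Parp3. Mvp, the major vault protein, had a difference of 0.07. Altogether 8 of the 9 measured members had a lower signal in Tc9 cells, where 43.7% of detectable genes did.

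**Figure D2:**
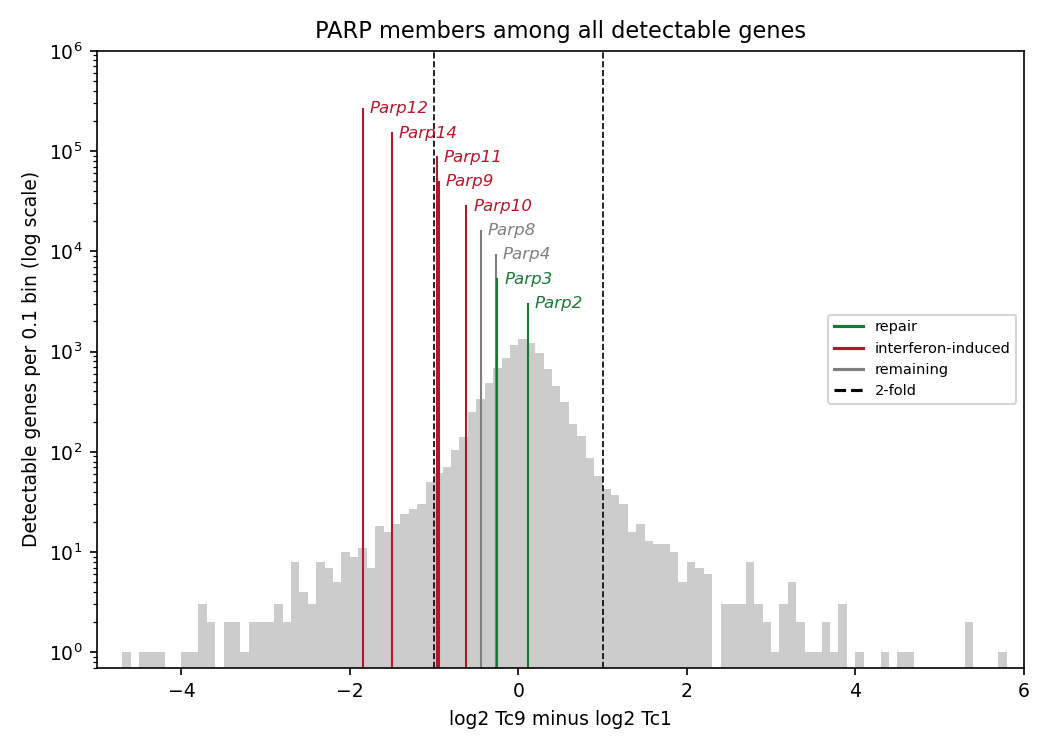
Number of detectable genes per 0.1 of log2 difference (grey bars, log scale, 10147 genes), with each PARP member drawn as a vertical line whose height carries no value. Parp12 and Parp14 lie beyond the 2-fold line on the lower side, Parp9 and Parp11 just inside it at -0.95 and -0.97, and Parp2 and Parp3 in the body of the distribution.

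The place of each member among all detectable genes gives a scale for these differences. With dim signals set at the threshold, 131 of the 10147 genes had a difference as low as that of Parp12 or lower and 125 one as low as that of Parp14, with no order between these 2 members. The number was 236 for Parp11, 253 for Parp9 and 503 for Parp10. The negative control probe sets leaned the same way at these signals. Of 193 such controls with a brighter array between 7 and 8, where Parp12 and Parp14 lay, 15.0% were at least 2-fold lower on the Tc9 array and 3.63% at least 2-fold higher. The shares were 2.80% and 3.04% for the 2072 genes in that range. The 5th percentile of the differences was -1.37 for these controls and -0.71 for these genes, so that the measured -1.84 of Parp12 and -1.50 of Parp14 lay below both. With the threshold in place of their dim signals, the 2 differences were -1.31 and -1.36. These bounded values cannot be set against the percentiles, which were taken from signals without the threshold put in. With a brighter array between 8 and 9, where Parp11 lay, 20.3% of 69 controls were at least 2-fold lower, and between 9 and 10, where Parp9 and Parp10 lay, 14.3% of 42 were. The 5th percentiles of these controls were -1.57 and -1.36, and those of the genes in the same ranges -0.65 and -0.59. The differences of Parp11, Parp9 and Parp10 thus lay above these percentiles of the controls and below those of the genes. The part of probe noise in the differences of the members was not tested.

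Parp11 was the interferon-induced member with the lowest difference among those above the threshold on both arrays. Of the 9358 genes above it on both arrays, the 5 nearest to its -0.97 were Cdyl2, Rel, Pde7a, Cd79a and Icam1, each with a difference of -0.97 when rounded to 2 decimals. Rel is an NF-κB subunit, Pde7a a phosphodiesterase that breaks down cAMP, Cd79a encodes a signalling subunit of the antigen receptor on B cells, and Icam1 is an adhesion ligand. With only 2 arrays the likeness is closeness of a single difference, and 77 genes lay within 0.1 of Parp11. Parp11 was taken for this comparison after the values were seen.

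Parp14, Dtx3l and Parp9 are consecutive protein-coding genes on chromosome 16 in the RefSeq gene order. The genes flanking this trio, Hspbap1 next to Parp14 and Kpna1 next to Parp9, had differences of -0.16 and -0.18, against -0.92 for Dtx3l, -0.95 for Parp9 and at most -1.36 for Parp14. The same reading was made for the 3 nearest protein-coding genes on each side of every measured member, a comparison chosen after the values were seen. It gave 49 genes outside the family, of which 27 were detectable, with a median difference of 0.18. Of these 27, none was at least 2-fold lower and 1 was higher, against 2.79% and 2.62% of all detectable genes. The 1 gene was Hipk2, a nuclear kinase near Parp12, with log2 signals of 9.38 and 11.02. Parp12, at -1.31 or lower, thus stood beside genes with measured differences of -0.03 to 1.64.

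**Figure D3:**
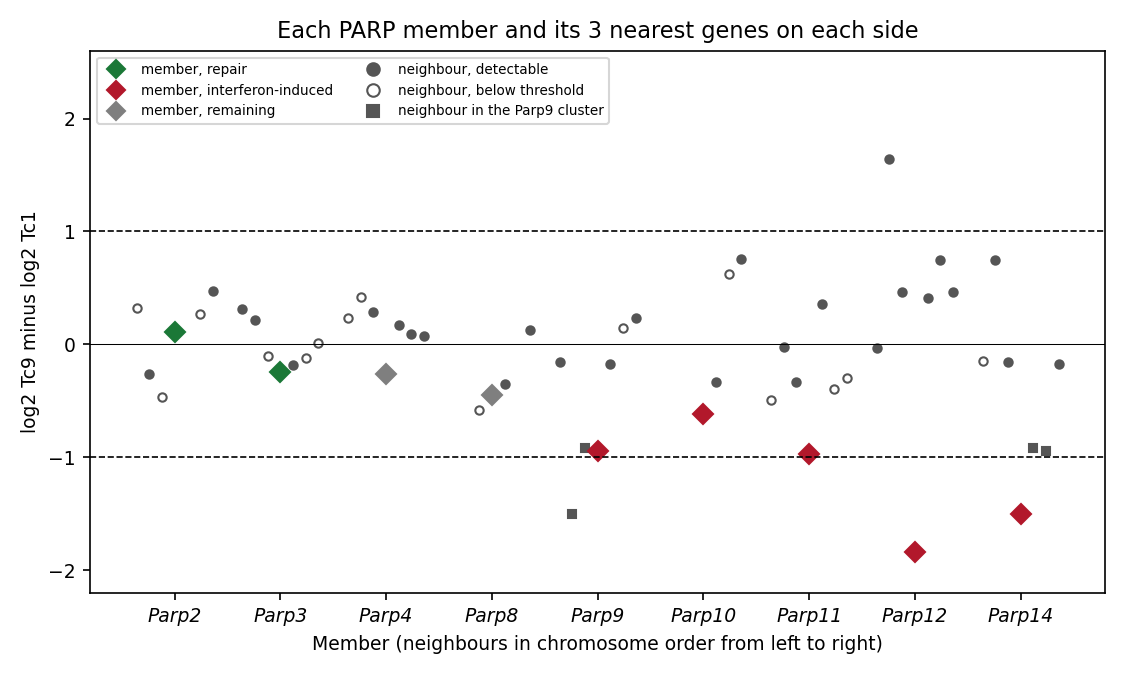
Log2 difference, Tc9 minus Tc1, of each measured PARP member (diamonds) and of the 3 nearest protein-coding genes on each side with a probe set (circles, open where both arrays were below the threshold; squares for Parp14, Dtx3l and Parp9 as neighbours of one another). Outside the Parp14, Dtx3l and Parp9 trio, no detectable neighbour lies at or below the lower 2-fold line at -1, and Hipk2 near Parp12 lies at 1.64.

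The 6 family relatives outside the 10 were all detectable, and none was 2-fold lower, where 2.79% of detectable genes were. Zc3hav1, the zinc finger antiviral protein that binds viral RNA and is also induced by interferon, had log2 signals of 10.46 and 10.33, a difference of -0.12. Tnks and Tnks2, the tankyrases that act in telomere upkeep and Wnt signalling, had differences of 0.04 and 0.17, the former turning to -0.02 after quantile normalization. Parp6 had log2 signals of 6.77 and 7.03 and Parp16, an enzyme of the endoplasmic reticulum, 7.25 and 7.63, so both were slightly higher in Tc9 cells. Tiparp, a target gene of the aryl hydrocarbon receptor that represses this receptor, was the relative with the largest difference toward Tc9 cells. Its log2 signals were 6.04 and 7.05, at least 1.54-fold higher, with the Tc1 signal below the threshold. The median difference of the relatives was 0.22. Of the 6, 5 were higher on the deposited scale, where 56.3% of detectable genes were, and 4 were higher under every scaling tried.

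Genes that work beside the PARP enzymes were read from fixed lists. Of 14 detectable partners, readers and erasers of ADP-ribose, none differed by 2-fold, where 2.79% of detectable genes were lower by that much and 2.62% higher. The median difference of the list was 0.07. Hpf1, the cofactor that directs Parp1 and Parp2 to serine residues, had log2 signals of 9.92 and 9.93. Macroh2a1, a histone variant with a macrodomain, had a difference of 0.06, and Nudt9, which cleaves free ADP-ribose, had -0.43. Dtx3l had the lowest difference of this list, at -0.92. Aplf, a repair factor that binds poly(ADP-ribose), had the highest, at 0.89, with log2 signals of 6.98 and 7.87, and was named after its value was seen.

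The detectable DNA repair genes of the fixed lists were within 2-fold, as were most genes on these arrays, with 2.79% of detectable genes past it on the lower side and 2.62% on the higher. None of 20 detectable genes of base excision and single-strand break repair passed it, and their median difference was 0.32. On the deposited scale 15 of the 20 were higher in Tc9 cells, where 56.3% of detectable genes were. After quantile normalization 13 were higher and after median centring 18. The share over all detectable genes was not computed for those 2 scalings. Xrcc1, the scaffold that Parp1 and Parp2 recruit, had log2 signals of 10.01 and 9.77. Fen1, a flap endonuclease, had a difference of 0.34, and Pcna, the replication clamp, had 0.00 at a log2 signal of 12.73 on both arrays. None of 17 detectable genes of double-strand break repair passed 2-fold either, with a median of 0.12. Of these, Xrcc5, the larger Ku subunit, had a difference of -0.09, Rad50 of -0.01 and H2ax, the histone variant marked at breaks, of 0.28.

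NAD is the substrate of all active PARP enzymes. Of 16 detectable genes that supply or consume NAD, 13 were lower in Tc9 cells, where 43.7% of detectable genes were, and 1 of them by 2-fold, where 2.79% were, with a median of -0.27. That gene was Bst1, also known as CD157, at log2 signals of 8.31 and 6.49, 3.54-fold lower. Nampt, the rate-limiting enzyme of NAD salvage, had log2 signals of 10.20 and 9.88. The deacetylases Sirt1 and Sirt2, which also use NAD, had differences of -0.71 and 0.04. Of 4 detectable genes of ADP-ribosylation at the cell surface, Art5 was 2.06-fold lower, which fell inside 2-fold after median centring and with an offset of 50 on each intensity, and Art4 was at least 1.40-fold higher. Art3, dim on the Tc9 array, was at least 1.03-fold lower. P2rx7, an ATP receptor that surface ADP-ribosylation can open, was dim on the Tc1 array and had a difference of at least 0.59.

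The interferon signalling genes included several with differences of the same sign as the interferon-induced members. Among 14 detectable genes of this list, which holds receptors, signal transducers, regulators and Ifng itself, 6 passed 2-fold on the lower side and 1 on the higher, against 2.79% and 2.62% of detectable genes, with a median of -0.40. Ifng, given above, was 1 of the 6. Irf7, a transcription factor that amplifies the interferon response, was at least 3.82-fold lower, and Irf1, which responds to IFN-γ, had log2 signals of 11.22 and 9.22, or 3.99-fold lower. Usp18, a feedback inhibitor, was 3.71-fold lower. Stat2 and Irf9, which form the complex that binds the ISRE and were named after their values were seen, had differences of -1.43 and -1.01, and Irf9 fell inside 2-fold after median centring and with the offset of 50. Socs1, another feedback inhibitor, went the other way, with log2 signals of 10.28 and 10.96, a difference of 0.68. Jak2 and the receptor chain gene Ifngr1 had differences of 0.64 and -0.41. The higher gene was Ifngr2, the second chain of the IFN-γ receptor, at log2 signals of 8.63 and 9.92, also named after its value was seen.

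**Figure D4:**
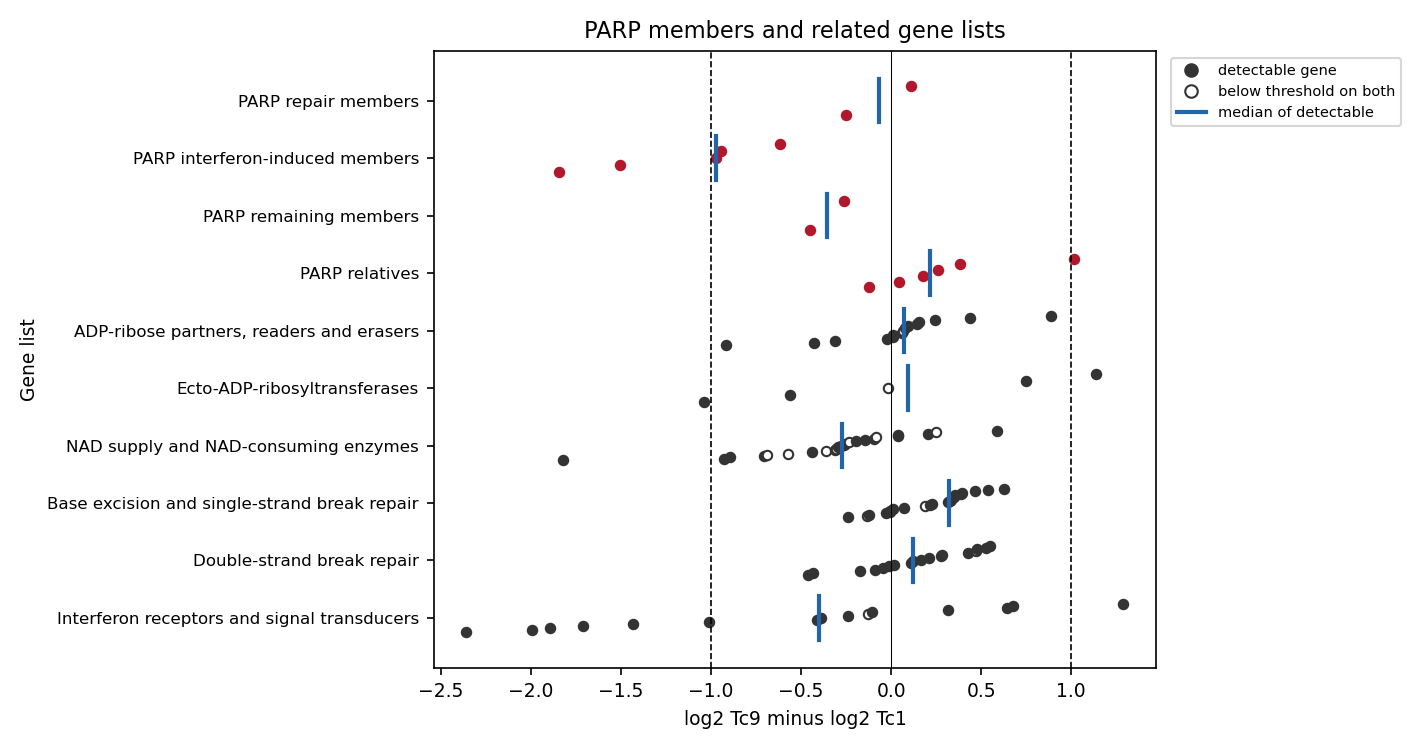
Log2 difference, Tc9 minus Tc1, of every measured gene in the PARP groups (red) and in the related lists (black), open where the gene was below the threshold on both arrays; blue bars are medians of detectable genes and dashed lines mark 2-fold. The interferon-induced members, with a median of -0.97, and 6 genes of the interferon list extend to the left, while the base excision repair list centres at 0.32 and the double-strand break repair list at 0.12.

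Markers of other cells were read because bulk cultures can hold them. The 8 measured CD8 T cell markers were all detectable and within 2-fold, where 2.79% of detectable genes were lower past it and 2.62% higher. Cd3e had log2 signals of 12.92 and 12.80, Cd8a 12.19 and 11.93, and Cd28 was near even. Of 10 measured B cell markers, 9 were detectable, and 8 of these had lower signals in Tc9 cells, where 43.7% of detectable genes did. The other detectable one, Vpreb3, was at least 1.18-fold higher, with its Tc1 signal below the threshold. Summed intensities of the 10 were 4619 in Tc1 cells and 3302 in Tc9 cells. Cd79a had a difference of -0.97, Cd79b of -0.42 and Ebf1 of -0.01, Fcrla was at least 1.30-fold lower, and Cr2 was below the threshold on both arrays. B cells also express Parp9 and Parp14, and the part of B cell RNA in their differences was not tested. Of 8 monocyte and macrophage markers, 3 were detectable, with differences of -0.87 for Fcgr3, -0.19 for Itgam and 0.43 for Lyz2. Summed intensities, which can hide such opposite differences, were 978 and 954 for these 8 markers. They were 262 and 241 for 7 dendritic cell markers, of which Zbtb46, at least 1.33-fold lower in Tc9 cells, was the detectable one. They were 744 and 355 for 5 NK cell markers, where Ncr1 and Klrb1c were below the threshold on both arrays. Eomes, a factor of CD8 T cells too, was the detectable NK cell marker. It made up most of both NK sums, with intensities of 593 and 284, and was 2.09-fold lower in Tc9 cells. The part of these cells in the results was not tested.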

How the data were processed

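Total RNA, labelled with biotin per the labels' protocols, was measured on Affymetrix arrays. The deposited table holds linear probe set intensities made by the authors; how probes were summarized, background-corrected and normalized is not stated in those sources. Both columns have close medians (57.2 and 53.1) and upper quartiles (330.5 and 346.2), so prior normalization was assumed, and log2 was taken without further steps. Of 28846 probe sets, 19572 have 1 symbol in the platform annotation, none several and 9274 none. For genes with several probe sets the one with the higher mean signal was used. Detectable genes were 10147 (52.0%), and 89.9% and 91.7% of 5222 negative controls lay below the threshold on the Tc1 and Tc9 arrays. The number of arrays limits the precision.

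The members and lists were chosen with earlier results of these data known. Named were all members and relatives, of each list up to 4 detectable genes past 2-fold and 3 others of highest signal, 5 genes nearest to Parp11 (planned for Parp12, whose difference is only bounded), and genes stated as named after their values were seen. A planned protein comparison was not made, as no protein sequences were used here. Promoters and gene order are from RefSeq, GRCm38.p6; the build of the array design is not given in the sources used here. Counting and motif search were tested on simulated data. Python 3.11.15, numpy 2.4.6 and pandas 2.3.3 were used.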

Additional observations from a re-analysis of the deposited data

How the results depend on the processing

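All 5 interferon-induced members were lower in Tc9 cells under each of the 8 alternatives. Of these, only quantile normalization and median centring could have changed a sign. Setting dim values at the threshold or adding the offset of 50 can only shrink a difference. The other alternatives left the difference of each member as it was. Neither Parp2 nor Parp3 passed the size rule under any of the 8. The number of interferon-induced members past the rule became 4 after quantile normalization and 5 at 1.5-fold, and was 2 under the other alternatives. Their median moved to -1.02 with quantile normalization, -0.90 with median centring and -0.85 with an offset of 50 added to each intensity. The median of the 2 repair members was -0.12 with quantile normalization and 0.00032 with median centring, which shifted all differences by 0.07. Over the detectable genes, 791 were higher and 688 lower at 1.5-fold, and 164 were higher with the offset of 50. With dim values at the threshold, Parp12 and Parp14 moved to -1.31 and -1.36. With the detection threshold at percentile 95 of the negative controls, a log2 signal of 7.16, 8 of the 9 members were detectable, Parp4 being the one left out. No paired analysis was possible because each group has 1 array. Signals near the background limit Parp12, Parp14 and Tiparp to a bounded fold. The Tc9 signal of Parp11, at 7.14, also lay just under the 7.16 of the controls, as did both signals of Parp4.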
